A study of Homo sapiens with 36 samples.

Results

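The subject is the transcriptome of wild-type U2OS Dmr-PERK cells after 16 h of dimerizer, set against the same cells left untreated. The members are set by label, as the 3 wild-type wells at 16 h and the 3 untreated wild-type wells at 0 h. They are 6 of the 36 libraries of the series. No expression value enters this rule, but earlier results of these data were known when the members were chosen. All 57665 genes of the count table entered, of which 44932 had a count in any library and 19043 passed the filter on low counts and were tested. U2OS is a human osteosarcoma line. Dmr-PERK joins the eIF2α kinase domain of mouse PERK to DmrB, a domain that pairs when a small molecule, the dimerizer AP20187, is added. The labels give its dose without a unit. The other groups used are ATF4 knockout (ATF4KO) Dmr-PERK cells with 16 h of dimerizer and untreated, and wild-type cells with 8 h and 24 h of dimerizer, with 3 wells each. All of these cells carried Dmr-PERK, and untreated wells were collected at 0 h only, so the kinase, the ligand and the hours in culture cannot be told apart. No label names the promoter of the construct or says whether each line is 1 clone. The labels do not say that the wells were separate cultures, so the p-values measure the spread between wells, which may be technical.

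PERK is 1 of the kinases of the integrated stress response. It phosphorylates eIF2α when unfolded proteins build up in the endoplasmic reticulum (ER), which slows translation initiation in general and raises translation of the transcription factor ATF4. ATF4 is known to activate genes of amino acid supply, tRNA charging and redox balance, and regulators such as DDIT3, TRIB3 and PPP1R15A, the last of which brings a phosphatase back to eIF2α. Here the kinase was paired by a ligand and not by an agent that disturbs the ER. The comparison describes cells after 16 h with the ligand, and cannot assign a change to this arm alone.

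Total counts were 13308532 to 16264785 per library at 16 h and 10112171 to 15178663 at 0 h, within 8608541 to 16264785 over the series. Mitochondrially encoded genes held 4.66 to 4.9% of the counts at 16 h and 5.65 to 5.7% at 0 h, and the 100 most abundant genes held 15.9 to 16.2% at 16 h and 18.2 to 18.3% at 0 h. Wells of the same group had Pearson's r of 0.9929 to 0.9945 across genes, and none of the 6 pairs of wells was a duplicate by counting noise. The markers of the line were mixed: RUNX2, a regulator of bone-forming cells, averaged 27.8 CPM (counts scaled to a common library total) at 16 h and 30.3 CPM at 0 h, and COL1A1 was abundant, whereas SP7 had no count and IBSP and TWIST1 had at most 1 count per group. Of 14 blood and endothelial markers, 5 had enough counts to be tested, and their sum was 3.11 to 3.15 CPM per well at 16 h and 5.2 to 7.19 CPM at 0 h. CD3E and HBA1 had no counts in these wells.

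By 16 h the response covered most of the measured transcriptome. With edgeR's quasi-likelihood test at an adjusted p under 0.05, 6419 genes rose, which is 33.7% of those tested, and 6254 fell, which is 32.8%. The counts of called list members given below are to be read beside these shares. The spread between wells was small (common biological coefficient of variation 0.029), so genes with modest changes passed, and the size of a change says more than the call. At least 2-fold changes were seen in 1217 genes that rose (6.39%) and 2618 that fell (13.7%). When the test itself asked for a change beyond 2-fold, 653 genes rose and 1540 fell. The median change over all tested genes was -0.02 on the log2 scale, the middle 50% of the genes lay between -0.55 and 0.41, and the outer 5% on each side lay past -1.93 and 1.15. The genes that rose at least 2-fold held 7.32 to 7.36% of all counts at 16 h and 2.73 to 2.86% at 0 h. Those that fell at least 2-fold held 3.47 to 3.54% of counts at 16 h and 10.5 to 11.0% at 0 h. Each library is scaled by its total and its TMM factor (0.991 to 0.999 at 16 h, 1.002 to 1.006 at 0 h). A rise or fall is therefore relative to the other transcripts of that library. In bulk wells, fewer cells of a type and less RNA per cell cannot be told apart.

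**Figure D1:**
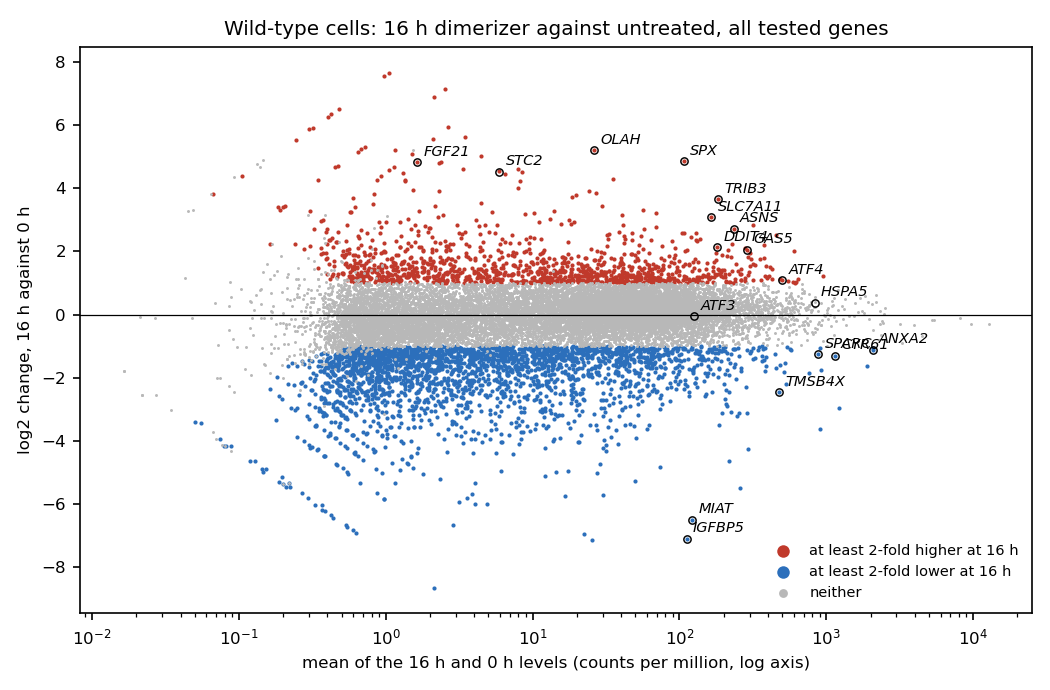
Fitted log2 change of each of the 19043 tested genes at 16 h against 0 h in wild-type cells (y) against its mean level in CPM on a log axis (x). Red points rose and blue points fell at least 2-fold with an adjusted p under 0.05, and circles mark named genes: of these OLAH and SPX lie highest, IGFBP5 and MIAT lowest, and ATF3 lies at -0.04.

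The integrated stress response genes were the list with the highest median change. The lists were chosen with earlier results of these data known, so their order by median is a description only. Of its 36 genes, 31 rose and 3 fell, 24 rose at least 2-fold, and the list's median change was 1.67 on the log2 scale, beside -0.02 for all tested genes. Its summed level was 5155 to 5288 CPM per well at 16 h and 1907 to 1929 CPM at 0 h. The kinase and its main effector came first in the order of the pathway. EIF2AK3, the gene of PERK itself, was at 853, 820 and 848 CPM at 16 h and at 650, 682 and 697 CPM at 0 h, a rise of 0.31 ± 0.03 (log2 change ± SE, adjusted p = 3e-13). The construct carries a mouse PERK domain, and whether its reads add to this human gene was not tested. ATF4 was at 667, 694 and 687 CPM at 16 h and at 310, 323 and 322 CPM at 0 h, a rise of 1.10 ± 0.03 (adjusted p = 9.3e-30).

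Other transcription factors linked to this arm did not move alike. DDIT3 (CHOP, a factor linked to stress-induced death) was at 73.5, 77.0 and 66.9 CPM at 16 h and 30.4, 32.1 and 31.0 CPM at 0 h, a rise of 1.22 ± 0.07 (adjusted p = 2.8e-19). CEBPG, a dimer partner of ATF4, rose by 1.90 ± 0.05 (adjusted p = 3.9e-30), and CEBPB, a related factor, by 0.89 ± 0.05 (adjusted p = 1.4e-18). NFIL3, a leucine-zipper repressor, rose to 97.2, 104 and 99.2 CPM at 16 h, against 15.7, 16.2 and 14.2 CPM at 0 h (log2 change 2.71 ± 0.06, adjusted p = 4.4e-33). ATF3, usually an early target of the same arm, was the exception. It was at 123, 130 and 120 CPM at 16 h and 119, 138 and 129 CPM at 0 h, so that the wells overlapped (log2 change -0.04 ± 0.10, adjusted p = 0.73). Without untreated well 2 its change was 0.00 (adjusted p = 0.97).

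Effectors of the pathway rose by widely different amounts. TRIB3, a pseudokinase that restrains ATF4 and AKT (chr20:362835-397559, plus strand, GRCh38, GENCODE 29), was at 338, 343 and 334 CPM at 16 h and 26.7, 25.7 and 27.4 CPM at 0 h. Its log2 change was 3.66 ± 0.05 (adjusted p = 1.2e-39), and no treated well came near an untreated one. CHAC1, which degrades glutathione, was at 72.7, 71.1 and 73.8 CPM at 16 h and 8.50, 8.96 and 7.30 CPM at 0 h (log2 change 3.15 ± 0.10, adjusted p = 1.3e-28). PPP1R15A (GADD34), the stress-induced eIF2α phosphatase subunit, rose to 167, 167 and 159 CPM at 16 h, against 54.2, 54.9 and 52.6 CPM at 0 h (1.61 ± 0.06, adjusted p = 2.7e-26). Among hormones and other secreted proteins, STC2 (stanniocalcin) was at 10.5, 12.5 and 11.0 CPM at 16 h and 0.593, 0.493 and 0.351 CPM at 0 h (4.53 ± 0.28, adjusted p = 9.2e-18). FGF21, a metabolic hormone, was at 2.82, 3.80 and 2.9 CPM at 16 h and near 0.1 CPM at 0 h (4.83 ± 0.42, adjusted p = 1.8e-11). GDF15, a stress cytokine that acts on appetite, rose less, to 39.4, 41.0 and 37.7 CPM at 16 h, against 29, 23.2 and 24.9 CPM at 0 h (0.60 ± 0.09, adjusted p = 9.1e-08). VLDLR, a lipoprotein receptor, rose by 1.98 ± 0.06 (adjusted p = 6.7e-29), and INHBE, a liver activin subunit, by 2.94 ± 0.12 (adjusted p = 7.5e-25).

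The 3 listed genes that fell were TRIB1, KLHL24 and CDKN1A. TRIB1, a relative of TRIB3, was at 22, 20.8 and 18.8 CPM at 16 h and 128, 129 and 125 CPM at 0 h (-2.64 ± 0.05, adjusted p = 6.1e-35), so these 2 pseudokinase genes moved in opposite directions. CDKN1A, the p21 cell-cycle inhibitor, fell by 0.39 on the log2 scale (adjusted p = 8.2e-11). KLHL24, a ubiquitin ligase adaptor, fell by 1.42 (adjusted p = 3.4e-14). BATF2 was the other listed gene that did not pass, at 0.332 CPM on average at 16 h and 0.170 CPM at 0 h.

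**Figure D2:**
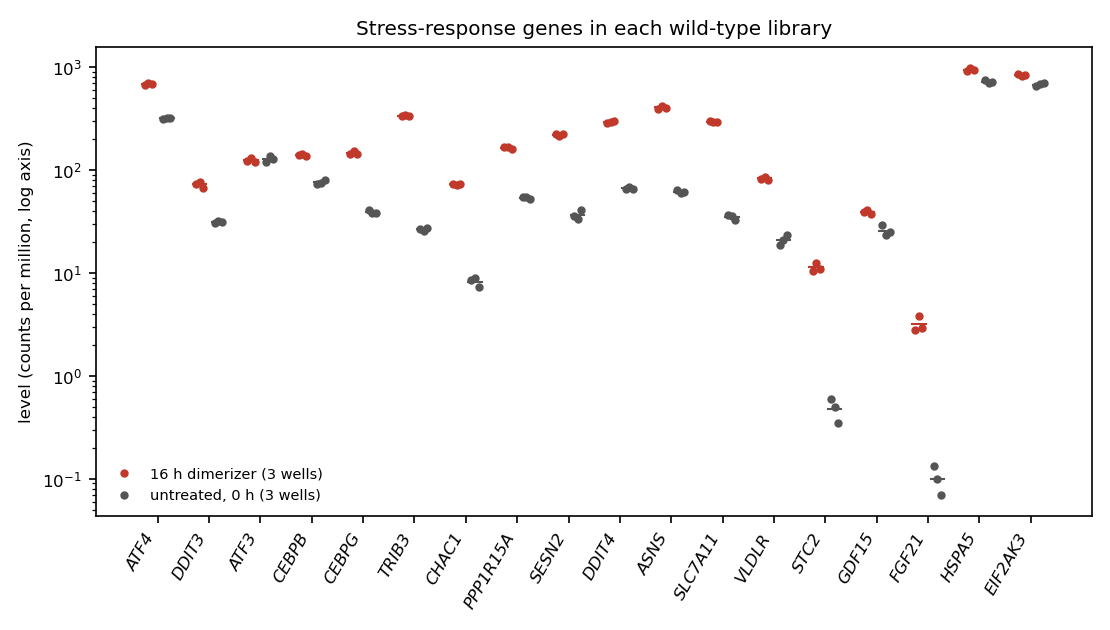
Level of 18 stress-response genes in each wild-type library in CPM on a log axis, with 3 wells at 16 h (red, left) and 3 untreated wells (grey, right) per gene and a line at each mean. The wells of the groups are apart for all shown genes but ATF3, and TRIB3, STC2 and FGF21 show the widest gaps.

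ATF4 with a C/EBP partner is known to bind the C/EBP-ATF response element. The letters TGATGNAA were searched on both strands in the 250 bases before the start of each gene in RefSeq (GRCh38.p14), with 1 promoter per gene, the first listed. Of the 36 stress-response genes, 28 had a promoter there and 4 held a match (14.3%): ASNS, CHAC1, FGF21 and ATF3. Of all 27305 promoters, 3.19% held one, and of the 11523 whose gene was tested, 1.57%. Among tested genes with a promoter, the letters stood in 29 of 658 that rose at least 2-fold (4.41%) and in 27 of 1499 that fell at least 2-fold (1.80%). These shares are descriptions with no test, and a match is not evidence of binding. The 3 genes with a match whose change passed the test are shown in the direction of the gene, 5′ to 3′, with the match in capitals. For ASNS and CHAC1 only the 30 bases around the match are shown, because exons of longer transcripts cover it. The ASNS stretch is chr7:97872458-97872487 (minus strand) with its match 68 bases before the start. The CHAC1 stretch is chr15:40953251-40953280 (plus strand), 209 bases before the start, and the FGF21 stretch is chr19:48755374-48755523 (plus strand), 54 bases before it. In the last 2 the element lies on the opposite strand and reads in reverse.
ASNS: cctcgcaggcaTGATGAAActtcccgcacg
CHAC1: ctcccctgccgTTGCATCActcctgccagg
FGF21: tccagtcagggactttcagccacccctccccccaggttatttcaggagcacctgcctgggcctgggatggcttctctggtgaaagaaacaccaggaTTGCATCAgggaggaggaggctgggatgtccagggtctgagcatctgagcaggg

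Most genes of amino acid supply rose. In serine and one-carbon metabolism, 14 of 18 tested genes rose and 3 fell (median 0.48). Of those that fell, 1 fell at least 2-fold, with a log2 change of -1.28. PSAT1, an enzyme of serine synthesis, was at 175, 181 and 182 CPM at 16 h and 30.8, 32.0 and 28.0 CPM at 0 h (2.57 ± 0.05, adjusted p = 5.1e-36). The mitochondrial folate enzymes followed: ALDH1L2 rose by 2.78 ± 0.06 (adjusted p = 2.3e-33), MTHFD2 by 2.19 ± 0.04 (adjusted p = 6.1e-36) and SHMT2 by 1.83 ± 0.04 (adjusted p = 5.5e-34). Among the genes that fell in this list were AMT, of the glycine cleavage system (by 0.77), and ALDH1L1, the cytosolic counterpart of ALDH1L2 (by 0.36). SHMT1, the cytosolic form of SHMT2, averaged -0.09 and did not pass (adjusted p = 0.22). In both of these pairs the mitochondrial member rose and the cytosolic member did not.

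Synthesis of asparagine, glutamine, proline and alanine showed 12 genes that rose and 5 that fell of 17. ASNS (asparagine synthetase) averaged 406 ± 15.5 CPM at 16 h and 61.4 ± 1.81 CPM at 0 h, with no overlap of wells (SD, n = 3; 2.72 ± 0.04, adjusted p = 1e-38). GPT2, an alanine aminotransferase, rose by 2.35 ± 0.05, PYCR1, the last enzyme of proline synthesis, by 1.53 ± 0.04, and GOT1, the cytosolic aspartate aminotransferase, by 1.61 ± 0.05, each with an adjusted p at or below 2.3e-29. Among the genes that fell, GLUL (glutamine synthetase) was at 0.722, 0.988 and 1.05 CPM at 16 h and 9.88, 10.7 and 10.1 CPM at 0 h (-3.45 ± 0.20, adjusted p = 7.7e-19).

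In sulfur and glutathione metabolism, 15 of 17 genes rose and 2 fell (median 0.83). CTH, which makes cysteine from cystathionine, was at 103 CPM in each 16 h well and 11.9, 9.56 and 9.62 CPM at 0 h (3.30 ± 0.06, adjusted p = 4.5e-36). CBS, the enzyme before it, rose by 1.78 ± 0.05 (adjusted p = 1.1e-28). SLC7A11, the cystine importer, was at 301, 292 and 291 CPM at 16 h and 36.3, 36 and 32.7 CPM at 0 h (3.08 ± 0.05, adjusted p = 5.4e-39). Of 22 amino acid transporters, 12 rose and 6 fell (median 0.95). Those that fell include 2 that did so at least 2-fold, and the lowest change in the list was -2.77. SLC1A5 and SLC1A4, neutral amino acid carriers, rose by 2.09 ± 0.04 and 2.12 ± 0.05, and the glycine carrier SLC6A9 by 2.07 ± 0.05 (adjusted p at or below 1.4e-31). SLC38A2, a carrier known to be induced by amino acid lack, fell by 0.33 (adjusted p = 1.1e-08), with 488, 505 and 501 CPM at 16 h and 584, 640 and 661 CPM at 0 h.

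The cytosolic aminoacyl-tRNA synthetases, which load tRNAs with amino acids, were nearly uniform: 19 of 20 rose, 15 of them at least 2-fold, with a median of 1.34. WARS was at 187, 177 and 190 CPM at 16 h and 31.0, 32.2 and 29.3 CPM at 0 h (2.59 ± 0.05, adjusted p = 3.8e-35), and GARS at 961, 994 and 946 CPM at 16 h and 255, 230 and 237 CPM at 0 h (2.00 ± 0.03, adjusted p = 1e-38). QARS, for glutamine, was the member that fell (by 0.71, adjusted p = 9.6e-21), with 113, 108 and 116 CPM at 16 h and 185, 182 and 184 CPM at 0 h. In ATF4KO cells it fell by 0.71 too (difference 0.00 ± 0.05, adjusted p = 0.99). The mitochondrial synthetases moved less: 11 of 17 rose and 1 fell (median 0.25), and PARS2 with 1.03 ± 0.13 had the largest change. GARS and the few other enzymes shared by both compartments were counted with the cytosolic ones.

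The translation apparatus rose along with its substrates. All 40 genes of ribosome biogenesis rose, 13 at least 2-fold (median 0.87). They include the nucleolar helicase DDX21 (819, 804 and 784 CPM at 16 h; 398, 384 and 382 CPM at 0 h; 1.05 ± 0.03, adjusted p = 2.3e-29), the pseudouridine synthase DKC1 (1.45 ± 0.04) and the processome subunit UTP4 (1.29 ± 0.03). MYC, a known driver of this programme, rose to 378, 385 and 371 CPM at 16 h, against 188, 177 and 175 CPM at 0 h (1.07 ± 0.04, adjusted p = 5.2e-25). The ribosomal proteins moved slightly: 58 of 78 rose and 4 fell, and none changed 2-fold (median 0.18). Many of these genes have near-identical pseudogenes, so their single values are uncertain. Of 21 genes of eIF2 and its regulators, 15 rose and none fell. EIF2B3, a subunit of the exchange factor that phosphorylated eIF2 blocks, rose by 1.46 ± 0.07 (adjusted p = 1.4e-22), and EIF2S2, the β subunit of eIF2, by 1.09 ± 0.03 (adjusted p = 4.3e-28). EIF4EBP1, which restrains cap-dependent initiation, rose by 2.34 ± 0.07 (adjusted p = 1.2e-29), whereas its relative EIF4EBP2 fell by 0.80 (adjusted p = 1.8e-19).

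Among mTORC1 brakes, SESN2, a leucine sensor, was at 222, 215 and 225 CPM at 16 h and 36, 33.2 and 40.6 CPM at 0 h (2.58 ± 0.06, adjusted p = 2.5e-32). DDIT4 (REDD1) was at 284, 296 and 300 CPM at 16 h and 65.9, 67.9 and 65.8 CPM at 0 h (2.14 ± 0.06, adjusted p = 2.9e-30). The related SESN3 fell by 1.68 (adjusted p = 8.9e-23), and GATSL3 (CASTOR1, the arginine sensor) by 2.00 (adjusted p = 7.2e-18). Over the list, 6 of 18 rose and 5 fell, shares near those of all tested genes (33.7% and 32.8%). By size the list moved more: 2 of the rises and all 5 falls were at least 2-fold, beside 6.39% and 13.7% of all tested genes.

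ER chaperones and ER-associated degradation, which the ATF6 and IRE1 arms are known to control, did not rise as a list: 11 of 30 rose, 16 fell and the median was -0.15. HSPA5 (BiP) was at 919, 974 and 934 CPM at 16 h and 748, 705 and 711 CPM at 0 h (0.38 ± 0.03, adjusted p = 1.2e-15). HSP90B1, PDIA4, MANF and PDIA6 fell by 0.61, 0.77, 0.82 and 0.41 (adjusted p at or below 1.6e-17). XBP1, the factor of the IRE1 arm, was the gene with the largest rise, to 272, 277 and 273 CPM at 16 h, against 112, 107 and 106 CPM at 0 h (1.34 ± 0.04, adjusted p = 2.5e-27). These counts do not separate its spliced form. ATF6 rose by 0.78 ± 0.04 and SEL1L by 0.60 ± 0.03. HERPUD1 averaged 144 CPM in both groups (-0.01 ± 0.04, adjusted p = 0.87). In the mitochondrion, 12 of 15 chaperones and proteases rose, with LONP1 at 1.57 ± 0.04, DNAJA3 at 1.54 ± 0.05 and HSPA9 at 1.22 ± 0.03 (adjusted p at or below 1.3e-27). Of 28 heat-shock genes 16 rose, among them the chaperonin subunit CCT6A (0.69 ± 0.03), and 12 fell, among them HSPB1 (by 1.52, adjusted p = 3.9e-33).

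The lists with the lowest medians were immediate early genes, collagens, cholesterol synthesis and NF-κB cytokines. Of 25 immediate early genes, which respond within minutes to growth factors and adhesion, 23 fell, 20 of them at least 2-fold (median -2.13). EGR2 was at 0.361, 0.380 and 0.308 CPM at 16 h and 39.7, 45.9 and 48.3 CPM at 0 h (-6.96 ± 0.24, adjusted p = 1.1e-26). The orphan receptor NR4A1 was at 29, 30.8 and 28.8 CPM at 16 h and 518, 578 and 582 CPM at 0 h (-4.24 ± 0.09, adjusted p = 2.3e-34). JUNB fell by 3.09 (adjusted p = 1e-39), IER3 by 3.11 (adjusted p = 1e-38) and FOSL2 by 1.59 (adjusted p = 7.6e-34). MYC and KLF2 were the 2 that rose. KLF4, DUSP4, DUSP6 and SPRY4, the other 4 genes of the list, had too few counts to be tested. In the NF-κB list, 15 of 24 fell and 7 rose (median -1.07). The chemokine CCL2 was at 2.60, 2.51 and 2.41 CPM at 16 h and 111, 89.4 and 90.4 CPM at 0 h (-5.28 ± 0.22, adjusted p = 3.6e-24), and the cytokine LIF fell by 2.30 (adjusted p = 1.2e-34). IL1A rose, to 9.03, 6.38 and 7.34 CPM at 16 h, against 1.32, 0.690 and 1.12 CPM at 0 h (2.80 ± 0.23, adjusted p = 5.4e-14).

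Extracellular matrix genes fell widely. Of 22 collagens, 16 fell, 12 at least 2-fold, and 3 rose (median -1.40). COL1A1 was at 412, 413 and 432 CPM at 16 h and 1373, 1445 and 1419 CPM at 0 h (-1.75 ± 0.04, adjusted p = 9.7e-35), and COL11A1 fell by 3.07 (adjusted p = 1.3e-29). COL27A1 and COL6A3 rose by 0.93 and 0.67 (adjusted p = 1.6e-16 and 3e-09). Of 39 other matrix genes, 31 fell and 3 rose (median -0.97). TIMP2, an inhibitor of matrix metalloproteinases, was at 51.6, 52.9 and 53.3 CPM at 16 h and 456, 448 and 459 CPM at 0 h (-3.11 ± 0.04, adjusted p = 6.9e-43). THBS1 (thrombospondin, chr15:39581079-39599466) was at 140, 142 and 129 CPM at 16 h and 1666, 1668 and 1680 CPM at 0 h (-3.61 ± 0.05, adjusted p = 1.1e-40). TNC (tenascin C) went the other way, with 809, 760 and 764 CPM at 16 h and 143, 125 and 135 CPM at 0 h (2.53 ± 0.03, adjusted p = 2.9e-41). Integrins and cadherins showed 17 of 22 lower, with ITGB8 at 3.11, 2.96 and 4.01 CPM at 16 h and 59.4, 59.7 and 60.8 CPM at 0 h (-4.14 ± 0.09, adjusted p = 5e-33).

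Targets of YAP and TEAD, the factors that read cell tension, fell in 17 of 20 cases (median -0.61). CTGF, a matricellular protein, was at 285, 278 and 265 CPM at 16 h and 2144, 2202 and 2113 CPM at 0 h (-2.96 ± 0.06, adjusted p = 2.2e-35), and its relative CYR61 at 669, 676 and 636 CPM at 16 h and 1632, 1608 and 1625 CPM at 0 h (-1.30 ± 0.04, adjusted p = 3e-30). AJUBA, DLC1 and the factor gene TEAD4 rose, the last by 0.95 ± 0.05 (adjusted p = 4.6e-21). Targets of TGF-β and BMP fell in 16 of 22 cases, with INHBA lower by 2.17 ± 0.07 (adjusted p = 1e-28). Cytoskeletal transcripts were among the most abundant that fell at least 2-fold, on the TPM scale, which counts transcripts per length. ANXA2 averaged 1522 ± 44.6 TPM at 16 h and 3309 ± 33.7 TPM at 0 h (SD, n = 3), ACTG1 1411 ± 14.5 TPM at 16 h and 3052 ± 75.7 TPM at 0 h, and TMSB4X, which binds actin monomers, 455 ± 13.4 TPM at 16 h and 2559 ± 163 TPM at 0 h. All 3 have processed pseudogenes, so some of their reads are uncertain. On the count scale TMSB4X fell by 2.46 (adjusted p = 1.2e-33).

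Sterol genes fell almost without exception. Of 26 tested genes of cholesterol synthesis and uptake, 23 fell, 17 at least 2-fold, and 1 rose (median -1.15). HMGCS1, an early enzyme of the pathway, was at 93.9, 100 and 93.5 CPM at 16 h and 414, 380 and 382 CPM at 0 h (-2.03 ± 0.05, adjusted p = 5.1e-32). STARD4, a sterol carrier, fell by 2.84 (adjusted p = 2e-34), and INSIG1, which holds SREBP in the ER and is itself its target, by 3.5 (adjusted p = 4e-28). SREBF2, the gene of the factor that drives this set, was at 177, 179 and 185 CPM at 16 h and 382, 399 and 406 CPM at 0 h (-1.13 ± 0.03, adjusted p = 6.1e-31). SCAP, the escort of SREBP, was the gene that rose (0.29 ± 0.04, adjusted p = 1.6e-07). The letters TCACNCCAC, a form of the sterol regulatory element, stood in 1 of 21 promoters of the list on either strand, that of SREBF2, and in 0.875% of all promoters. Among tested genes with a promoter the share was 0.903%. It was 1.22% of those that rose at least 2-fold and 1.2% of those that fell at least 2-fold, with no test. Its stretch, chr22:41832952-41833078 (GRCh38.p14, plus strand), holds the match 133 bases before the start.
SREBF2: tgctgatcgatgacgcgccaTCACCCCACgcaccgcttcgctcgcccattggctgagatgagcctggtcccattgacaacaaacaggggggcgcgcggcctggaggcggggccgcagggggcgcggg

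Fatty acid genes were mixed, with 14 of 25 lower and 10 higher (median -0.18). FADS2, a desaturase, was at 44.7, 42.8 and 47.2 CPM at 16 h and 259, 261 and 259 CPM at 0 h (-2.53 ± 0.05, adjusted p = 1.5e-35), while FASN fell by 0.56. PLIN2, which coats lipid droplets, and DGAT2, which makes triglyceride, rose by 1.81 ± 0.06 and 1.65 ± 0.09 (adjusted p = 2.4e-27 and 3.9e-20). Of 35 lysosomal genes 27 fell and 1 rose (median -0.53), with the sterol exporter NPC2 lower by 1.42 ± 0.03 (adjusted p = 8.3e-33). Of 31 autophagy genes 16 rose and 9 fell (median 0.14). MAP1LC3B was among those that rose, with 375, 367 and 358 CPM at 16 h and 159, 144 and 148 CPM at 0 h (1.28 ± 0.04, adjusted p = 3.8e-29). Of 23 NRF2 targets 15 rose and 6 fell (median 0.27). SRXN1 and TXNRD1, of the peroxiredoxin and thioredoxin systems, rose by 1.45 ± 0.04 and 1.13 ± 0.04. AKR1C3 fell by 3.70 (adjusted p = 4.3e-23).

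Proliferation genes showed a higher S phase set and a mixed mitotic set. Of 41 replication genes 36 rose and 1 fell (median 0.47), with the licensing factor CDC6 at 182, 187 and 183 CPM at 16 h and 71.9, 64.2 and 61.1 CPM at 0 h (1.48 ± 0.05, adjusted p = 4e-27). Of 35 genes of G2 and mitosis 15 rose, 10 fell and none changed 2-fold (median 0.04). Cyclin D genes split: CCND2 was at 435, 422 and 426 CPM at 16 h and 168, 165 and 166 CPM at 0 h (1.36 ± 0.03, adjusted p = 7.2e-35), and CCND1 fell by 0.65 (adjusted p = 3.9e-21). CDKN2B (p15) fell by 2.46 (adjusted p = 2.5e-25). Of 24 p53 targets 13 fell and 7 rose (median -0.16), with BTG2 lower by 2.17 ± 0.06. Of 26 apoptosis regulators 14 rose and 7 fell (median 0.2). The p53 and apoptosis medians both lie within the middle 50% of all tested genes, from -0.55 to 0.41. Among the apoptosis regulators, the death receptor gene TNFRSF10B rose by 0.71 ± 0.04 and PMAIP1 (NOXA) by 0.84 ± 0.04, MCL1 fell by 0.76 and BMF by 3.21 (adjusted p at or below 2.2e-18).

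Energy metabolism moved little as a list. Respiratory chain genes of the nucleus were even, with 15 of 38 higher, 15 lower and a median of -0.01, and 11 of 13 mitochondrially encoded genes fell (median -0.19). Glycolysis had 11 of 23 higher and 11 lower (median 0.05), with hexokinase HK2 higher by 1.41 ± 0.07 (adjusted p = 2.2e-22) and ALDOC lower by 2.48 ± 0.17 (adjusted p = 1.9e-16). Interferon and antigen presentation genes fell in 17 of 28 cases and rose in 4 (median -0.43). TAP2, a subunit of the peptide transporter for antigen presentation, rose by 1.43 ± 0.07 (adjusted p = 2.8e-22). Of 10 tested bone-lineage genes 6 fell and 2 rose, ALPL (alkaline phosphatase) by 1.10 ± 0.11 (adjusted p = 3.8e-12).

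The largest rises among called genes with at least 1 CPM and no overlap of wells came mostly from genes nearly silent at 0 h. SPX, which encodes the peptide hormone spexin, stood out for its level: 203, 216 and 203 CPM at 16 h and 8.50, 5.52 and 6.81 CPM at 0 h (4.86 ± 0.07, adjusted p = 1.4e-39). OLAH, a thioesterase that ends fatty acid synthesis early (chr10:15032227-15073852, plus strand), was at 53.8, 52.0 and 48.2 CPM at 16 h and 1.98, 0.690 and 1.26 CPM at 0 h (5.20 ± 0.12, adjusted p = 1.4e-32). TM6SF1, a membrane protein, rose to 8.23, 8.74 and 8.88 CPM at 16 h, against 0.132, 0.394 and 0.281 CPM at 0 h (5.03 ± 0.40, adjusted p = 1.2e-14). INSC, which orients the mitotic spindle, rose by 5.64 ± 0.36 (adjusted p = 8.7e-18). SPNS3, a member of a lipid transporter family, had 92 counts at 16 h and none at 0 h, at least 28.1-fold higher when the 0 over the group is read as 3 counts. ESRP1, an epithelial splicing regulator, had 181 counts at 16 h and 1 at 0 h, a ratio of 166 with an exact 95% interval of 29.4 to 6581. SPRR2D, a protein of the cornified envelope whose family members resemble each other, had 216 counts at 16 h and 1 at 0 h, a ratio of 198 (35.1 to 7847). Both are on the list of epithelial markers, of which 16 were tested: 10 fell, and KRT7 and CLDN1 were the other 2 of the 4 that rose. KRT8 fell by 1.10 (adjusted p = 2.7e-25), CDH1 averaged 4.63 CPM in both groups, and KRT19 had 2 counts in each. The remaining largest rises were RP11-495P10.7 (ratio 69.0, 23.3 to 337), KLHDC7B (54.0, 18.2 to 264), RP11-875O11.3 (44.9, 12.1 to 376), GDAP1L1 (37.8, 12.7 to 186) and FGF21.

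Among abundant transcripts that rose at least 2-fold, on the TPM scale, were RNAs that host small nucleolar RNAs. GAS5 averaged 1412 ± 68.5 TPM at 16 h and 289 ± 7.82 TPM at 0 h (SD, n = 3), and ZFAS1 787 ± 20.4 TPM at 16 h and 146 ± 6.30 TPM at 0 h. On the count scale they rose by 2.06 ± 0.04 and 2.39 ± 0.05 (adjusted p = 5.5e-34 and 4.6e-34). Both are known substrates of nonsense-mediated decay, which depends on translation. The others were EIF1 (1510 ± 30.5 TPM at 16 h and 738 ± 11.0 TPM at 0 h), HMGA1, PFDN2, YBX3, ATF4 and the short RNA BCYRN1, whose reads are hard to tell from its many genomic copies.

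The deepest falls left some genes close to silent. IGFBP5, which binds insulin-like growth factors (chr2:216672105-216695525), was at 2.02, 1.67 and 1.23 CPM at 16 h and 220, 228 and 219 CPM at 0 h (-7.09 ± 0.13, adjusted p = 1.9e-36). MIAT, a long noncoding RNA, was at 3.47, 2.58 and 2.10 CPM at 16 h and 231, 247 and 249 CPM at 0 h (-6.49 ± 0.10, adjusted p = 9.6e-39). CXCL14, a chemokine, fell to 0.217, 0.380 and 0.432 CPM at 16 h, against 45.0, 52.5 and 54.4 CPM at 0 h (-7.14 ± 0.21, adjusted p = 3.3e-29). KIAA1210 had no count at 16 h and 164 counts at 0 h, at least 59.7-fold lower at 16 h when its 0 is read as 3 counts. CSF2 (GM-CSF) had 2 counts at 16 h and 227 at 0 h, a ratio of 0 h to 16 h of 124 (33.9 to 1030). The others among the largest falls were EGR2, EGR4, CCL24, PDGFB, the dopamine receptor DRD1, the potassium channel KCNA1 and the actin-binding XIRP1, with log2 changes of -6.96 to -5.72.

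By gene class, 4893 of 12535 tested protein-coding genes rose and 4429 fell (median 0.02). Of 1177 long intergenic noncoding RNAs 203 rose and 344 fell, and of 1186 antisense genes 201 rose and 297 fell, each with a median of -0.18. Over all tested genes 33.7% rose and 32.8% fell, so both of these noncoding classes were called less often in each direction. Changes of at least 2-fold did not follow this. Of the intergenic RNAs 97 rose and 205 fell that far, and of the antisense genes 98 rose and 160 fell. These shares lie above those of all tested genes (6.39% and 13.7%), but for the antisense falls, which lie near it. Whether low counts lowered the calls was not tested. A further 2373 tested genes were not in GENCODE 29 and have no class here. No source says whether the counting used strand, so reads of antisense genes and their partners cannot be told apart.

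The 16 h wells were also set beside their neighbours in time, which share the 16 h libraries. Against 8 h, 4684 genes were higher at 16 h (24.6%) and 4411 lower (23.2%). From 16 to 24 h, 1387 were higher (7.28%) and 1709 lower (8.97%), and 93 of these rose and 43 fell at least 2-fold. On log2(TPM + 1) with limma, 2375 genes passed as higher at 16 h than at 8 h, 228 as higher at 24 h than at 16 h and 306 as lower. Of the 36 stress-response genes, 13 were higher and 14 lower at 16 h than at 8 h, and 15 rose and 2 fell by 24 h. ATF4 averaged 725 ± 20.1 CPM at 8 h, 683 ± 14.1 CPM at 16 h and 703 ± 12 CPM at 24 h (SD, n = 3), and the step from 16 to 24 h did not pass (adjusted p = 0.41). TRIB3 dipped, with 415 ± 12.9 CPM at 8 h, 338 ± 4.77 CPM at 16 h and 423 ± 11.3 CPM at 24 h. Its change was -0.30 ± 0.04 from 8 to 16 h (adjusted p = 1.8e-08) and 0.32 ± 0.04 from 16 to 24 h (adjusted p = 3.5e-08). STC2, SPX and OLAH rose at each of these steps. STC2 averaged 6.40 ± 0.794 CPM at 8 h, 11.4 ± 1.04 CPM at 16 h and 15.9 ± 1.12 CPM at 24 h, SPX 98.3 ± 4.06, 207 ± 7.68 and 240 ± 3.76 CPM, and the enzyme OLAH 12.6 ± 0.657, 51.3 ± 2.88 and 93.2 ± 4.93 CPM at the same times. Their log2 changes from 16 to 24 h were 0.49 ± 0.16, 0.21 ± 0.04 and 0.86 ± 0.06 (adjusted p = 0.033, 4e-04 and 1.6e-13 in that order). FGF21 and INHBE, also secreted, did not pass from 16 to 24 h (adjusted p = 0.18 and 0.34).

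Against the mean of 8 h and 24 h, 3619 genes were above at 16 h (19.0%) and 3096 below (16.3%), and on log2(TPM + 1) 1131 were above and 1573 below. Those with at least 1 CPM and no overlap with either neighbour numbered 1407 above and 1058 below. The inducible heat-shock genes HSPA1A and HSPA1B were among those above. HSPA1A averaged 109 ± 4.52 CPM at 0 h, 12.1 ± 0.767 CPM at 8 h, 56.0 ± 0.0688 CPM at 16 h and 35.8 ± 5.25 CPM at 24 h. HSPA1B averaged 82.7 ± 0.520, 15.1 ± 1.44, 54.3 ± 3.11 and 34.8 ± 0.442 CPM at those times. The pair is nearly identical in sequence, so their counts are not independent. PANK1, which starts coenzyme A synthesis, averaged 3.24 ± 0.539 CPM at 8 h, 6.70 ± 0.275 CPM at 16 h and 2.96 ± 0.630 CPM at 24 h. CXCR6, a chemokine receptor, averaged 0.721 CPM at 8 h, 2.19 CPM at 16 h and 1.22 CPM at 24 h. CXCL8 (interleukin 8) was among those below, with 261 ± 68.8 CPM at 8 h, 39.5 ± 8.26 CPM at 16 h and 124 ± 10.6 CPM at 24 h. Its change was -2.75 ± 0.15 from 8 to 16 h (adjusted p = 5.6e-19) and 1.66 ± 0.17 from 16 to 24 h (adjusted p = 5e-10). CCL2, KCNA1, XIRP1, STARD13-AS and INSL4 were also lowest at 16 h. As lists, 22 of 24 NF-κB genes were lower at 16 h than at 8 h and none was higher, and 15 rose by 24 h with none falling. Of 25 immediate early genes 18 were lower at 16 h than at 8 h and 2 higher, and 13 rose by 24 h with none falling.

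**Figure D3:**
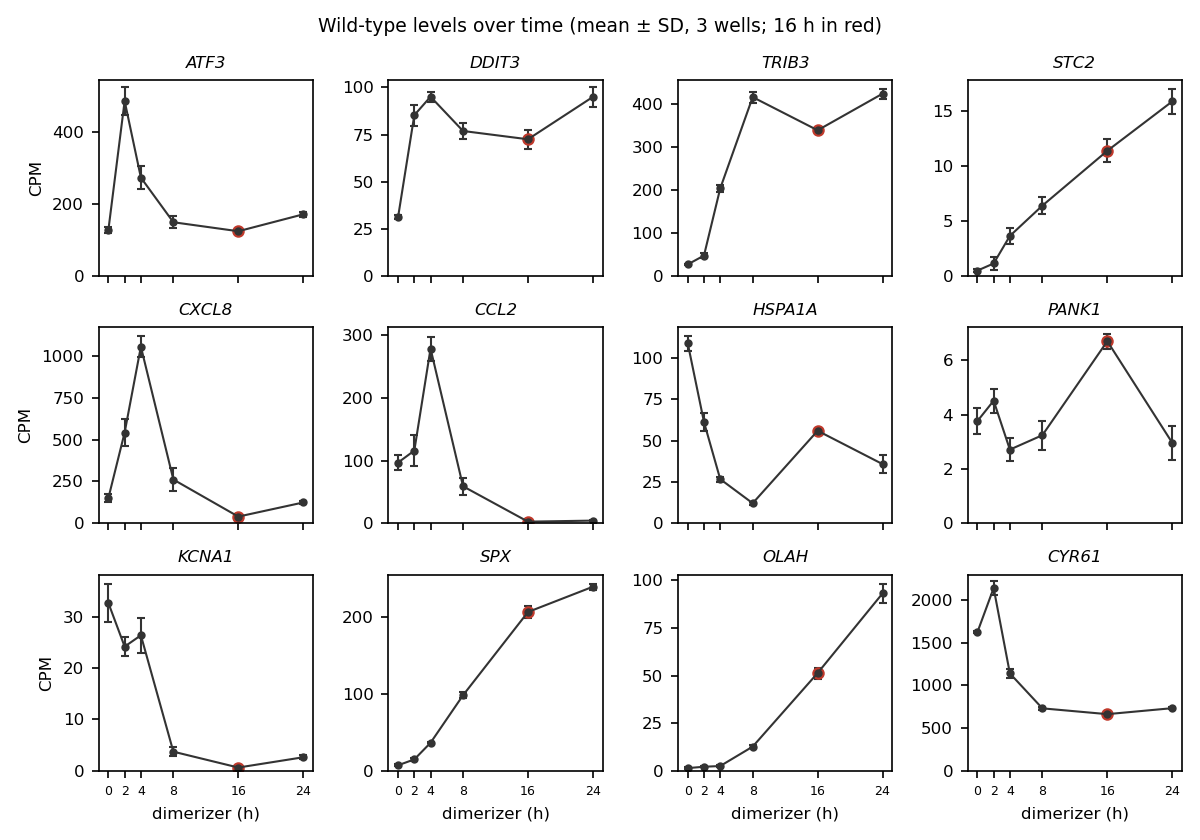
Level of 12 genes in wild-type cells (CPM, linear axes from 0) against hours of dimerizer from 0 to 24, as mean ± SD of 3 wells, with 16 h in red. CXCL8, CCL2 and KCNA1 are lowest at 16 h, PANK1 is highest there, and STC2, SPX and OLAH are still higher at 24 h.

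The same 16 h step in ATF4KO cells, with no shared libraries, addresses which of these changes were also seen in cells labelled as lacking ATF4. The ATF4 transcript was still counted in the knockout, at 713, 751 and 730 CPM at 16 h and 259, 274 and 265 CPM at 0 h. No label describes the knockout allele, so this count does not check the genotype. In ATF4KO cells 6289 genes rose (33.0%) and 6223 fell (32.7%). Of the wild-type rises 5127 were also called higher in ATF4KO cells, which is 79.9% of the wild-type and 81.5% of the ATF4KO rises, and 4830 falls were shared (77.2% and 77.6%). Among genes changed at least 2-fold in both, 637 rose, 52.3% of those in wild type and 50% of those in ATF4KO, and 1878 fell (71.7% and 69.1%). Of the 1217 wild-type genes that rose at least 2-fold, 71 fell in ATF4KO cells, and of the 2618 that fell at least 2-fold, 5 rose. A test of the difference of the changes called 3179 genes with a higher change in ATF4KO than in wild type (16.7%) and 2104 with a lower one (11.0%). On the deposited TPM, with limma on log2(TPM + 1), these counts were 1092 and 1171. The count and TPM columns of the untreated ATF4KO wells do not pair: 0 of 3 count columns were most like the TPM column of the same name, against 3 of 3 in every other group.

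In the stress-response list, 9 of 36 rose and 18 fell in ATF4KO cells (median -0.25), and the ATF4KO change was lower than the wild-type change for 28 and higher for 1, ATF4 itself. DDIT4 was at 5.33, 5.98 and 5.26 CPM at 16 h and 42.3, 45.1 and 43.8 CPM at 0 h in ATF4KO cells, a fall of 2.99, so the ATF4KO change lay 5.14 ± 0.14 below the wild-type change (adjusted p = 1.1e-28). SLC7A11 averaged 1.68 CPM at 16 h and 2.22 CPM at 0 h in ATF4KO cells (adjusted p = 0.19), a difference of -3.45 from wild type (adjusted p = 8.2e-14). FGF21 had no counts in ATF4KO cells. CEBPG rose by 1.85 in ATF4KO and 1.90 in wild type (difference -0.05, adjusted p = 0.76). HSPA5 was at 245, 240 and 238 CPM at 16 h and 642, 630 and 637 CPM at 0 h in ATF4KO cells, a fall of 1.40, where wild-type cells rose (difference -1.78 ± 0.04, adjusted p = 9.9e-31). Of 30 ER genes 24 fell in ATF4KO cells and 2 rose, and 24 had a lower change than in wild type. Similarly XBP1, SEL1L, CCND2, MAP1LC3B and the tight junction gene CLDN1 rose in wild type and fell in ATF4KO, with differences of -1.87, -1.18, -1.58, -1.48 and -2.55 (adjusted p at or below 2.3e-21).

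The lists that follow are given for ATF4KO cells with the test of the difference from wild type. The cytosolic synthetases rose in 18 of 20 cases in ATF4KO cells (median 0.70, beside 1.34 in wild type), with WARS lower in its change by 1.69 and CARS the member that rose in wild type and fell in ATF4KO. Their change was lower in ATF4KO than in wild type for 11 and higher for 6. All 40 ribosome biogenesis genes rose (median 1.08), and for 26 the change was higher than in wild type and for none lower. Cholesterol genes fell in 23 of 26 cases (median -1.31), with a lower change than in wild type for 9 and a higher one for 3. Immediate early genes fell in 22 of 25 cases (median -2.44), with a lower change for 3 and a higher one for 7. GAS5 and ZFAS1 rose by 2.22 and 2.51. Genes of G2 and mitosis, mixed in wild type, rose in 28 of 35 cases in ATF4KO cells and fell in 2 (median 0.41), and for 28 the change was higher than in wild type. KRT75, a keratin, averaged 32.5 CPM at 16 h and 69.6 CPM at 0 h in ATF4KO cells, and 6.98 CPM at 16 h and 78.2 CPM at 0 h in wild type (difference 2.40 ± 0.13, adjusted p = 6e-19).

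**Figure D4:**
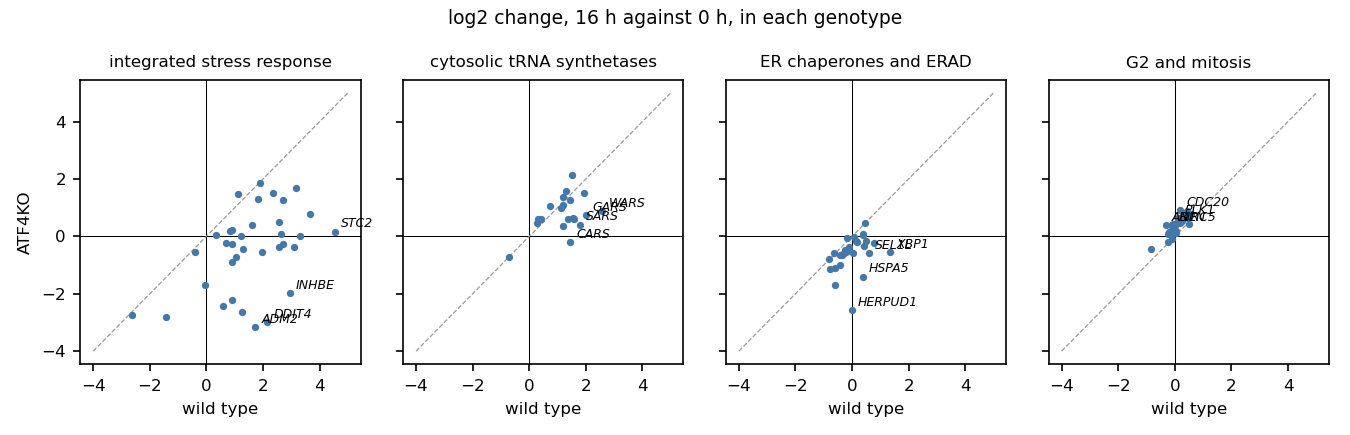
Log2 change at 16 h against 0 h in ATF4KO cells (y) and in wild-type cells (x) for members of 4 lists with more than 3 counts in each group; the dashed line marks equal change and the 4 members farthest from it are named. Most stress-response genes lie below the line (28 with a lower ATF4KO change), and most G2 and mitosis genes above it (28 with a higher one).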

How the data were processed

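RNA was measured by RNA-seq of total RNA in 36 libraries, 6 of which form the comparison. The deposited tables hold estimated counts and TPM per gene, which the authors made with Salmon 0.9.1 on GRCh38 after FastQC 0.11.5, per the submitters' processing notes. No source used here names the annotation release. No deposited TPM was below 0.102292, in any column. The deposited estimated counts were rounded to whole numbers. Genes were filtered with filterByExpr and scaled by TMM in edgeR 4.0.16 (R 4.3.3), and a model with 1 mean for each of 12 groups was fitted to all 36 libraries. Contrasts were tested with edgeR's quasi-likelihood test, with Benjamini-Hochberg adjustment over 19043 genes and a threshold of 0.05. The SE of a log2 change was not fitted directly. It is the absolute log2 change divided by the square root of the test's F statistic, and is approximate, most of all for genes with few counts. Levels are CPM per library, and a ratio with 3 counts or fewer in a group has an exact 95% interval that covers counting error only. Gene positions and classes come from GENCODE 29, which held 16670 of the tested genes. DESeq2 1.42.0 and limma 3.58.1 on log2(TPM + 1) and log2(TPM + 0.1) were alternatives. Counts were also simulated for all 36 libraries, with 50 genes at each fold changed in the wild-type 16 h wells only. There the test recovered 46% of genes changed 1.25-fold, 62% at 1.5-fold, 70% at 2-fold and 94% at 4-fold, with 3 false calls. Far fewer genes changed there than in the data, where 66.5% were called. The adjustment was therefore stricter in the simulation, and these shares do not give the recovery in this comparison. Genes were named by rule: 18 stress-response genes by name, the largest changes in each direction with a mean of at least 1 CPM and no overlap of wells, the lowest p-values and the opposing members of each list, the most abundant 2-fold changes, the largest differences between genotypes and the genes farthest from 8 h and 24 h. NFIL3, INHBE, INSIG1, HERPUD1, SHMT1, BATF2, WARS, CARS and CDH1 fall outside it and were named after their values were seen. The members and the 39 gene lists were chosen with earlier results of these data known.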

Additional observations from a re-analysis of the deposited data

Results flagged for a closer look

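The 16 h change differed between the ATF4KO and the wild-type cells by the test of the difference itself for 3179 genes with a higher and 2104 with a lower change in ATF4KO. The differences below are ATF4KO change minus wild-type change on the log2 scale, all past the threshold in edgeR's quasi-likelihood test. Among stress-response genes and their regulators the difference was -1.19 for DDIT3, -1.67 for ATF3, -2.88 for TRIB3, -2.98 for ASNS, -3.45 for SLC7A11, -2.08 for SESN2, -5.14 for DDIT4, -1.23 for PPP1R15A, -2.52 for VLDLR, -3.02 for GDF15, -4.37 for STC2 and -1.77 for CEBPB. ATF3, level in wild type, thus differed between the genotypes. CHAC1 is not among these genes, and its difference moved between -1.91 and 0.10 when 1 well was left out. The difference was -1.78 for HSPA5 and -0.22 for EIF2AK3, and 0.35 for ATF4 itself. Among the largest differences, OLAH was at -7.31, TM6SF1 at -5.96 and ANGPT4, an angiopoietin, at -5.82. On the other side were HOXD11 at 3.00, HNRNPA1P66 and KIAA1755 at 2.44 each, KRT75 at 2.40 and DRD1 at 2.18, the last of which turned to -0.29 on log2(TPM + 1). HNRNPA1P66 is a pseudogene whose reads may be shared with its parent. AC009065.1 was at 5.44, and this value rests on untreated wild-type well 1, with 5.67 CPM, where the other wells of that group had none.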

How the results depend on the processing

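Of 182 counts of called genes under alternatives, 164 stayed within 1.5 times the count reported. Of 1170 counts of called list members 88 moved by more than that, and of 585 list medians 115 moved by more than 1 SD between wells. A test for changes beyond 2-fold called 653 higher and 1540 lower at 16 h in wild type. With limma on log2(TPM + 1), and on log2(TPM + 0.1) after it, the calls for the genotype difference were 1092 and 1121 higher, and 1171 and 1138 lower, and without the TPM column of untreated ATF4KO replicate 3, an alternative chosen after seeing the data, 1458 higher and 1401 lower. In the same order, 16 h against 8 h gave 2375 and 2343 higher, 24 h against 16 h gave 228 and 230 higher and 306 and 325 lower, and 16 h against both neighbours gave 1131 and 1094 higher and 1573 and 1612 lower. The cause was not tested. Of the 12673 genes called at 16 h in wild type, DESeq2 kept 11630, log2(TPM + 1) 9725 and log2(TPM + 0.1) 9690, with 11 called in the opposite direction on each TPM scale, and leaving out 1 well kept 11742 to 11990. The replicate numbers do not pair the wells by correlation of deviations, and a replicate block gave 12661 calls. Leaving out 1 well moved ATF3's wild-type change between -0.09 and 0.00 (adjusted p = 0.97 without untreated well 2), CHAC1's difference between -1.91 and 0.10, AC009065.1's change between -4.69 and 3.83 and its difference between -2.15 and 7.79. DRD1's difference was -0.29 on log2(TPM + 1). Of 4485 values of named genes' changes, 4285 kept direction and side of the threshold, 193 lost the call, 5 gained it and 2 reversed.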
